A study of Mus musculus with 6 samples.

Results

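The genes described are YAP1 and TAZ (Wwtr1), the TEAD factor Tead1 and 7 genes known as their targets or regulators, namely Cyr61, Ctgf, Ankrd1, Axl, Amotl2, Lats2 and Ajuba. They were taken by name from a table of 54146 genes, each name matched 1 row, and all 10 passed the filter for testing, which 12301 genes passed. Their levels were measured by RNAseq in D2A1, a mouse mammary tumor cell line, grown as spheroids in 3D Matrigel with serum. A total of 3 libraries came from spheroids given recombinant SLURP1 (rSLURP1) and 3 from spheroids given recombinant GST (rGST), the control protein, each at 50 nM per the labels. According to the methods the cells were harvested on day 5. The comparison asks which genes differ in expression with rSLURP1, a secreted protein of the Ly6 family. The labels do not say whether the libraries came from separate cultures, so p-values measure only the spread between these libraries.

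YAP1 and TAZ are transcriptional coactivators that do not bind DNA by themselves. When cells spread, are under tension or attach through integrins, YAP1 and TAZ enter the nucleus, join TEAD factors on DNA and raise the transcription of genes for matrix proteins, growth and survival. The Hippo kinases, MST1 and MST2 (Stk4 and Stk3) followed by LATS1 and LATS2, phosphorylate YAP1 and TAZ and keep them in the cytoplasm. The level of the Yap1 and Wwtr1 transcripts therefore says little of their activity, which is usually read from target genes such as Ctgf and Cyr61.

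TEAD factors bind the letters GGAATG, or CATTCC when read on the other strand. RefSeq start regions, 250 bases before and 50 after a start, were at hand for 8 of the 10 genes (10 regions on GRCm38.p6). Each of these 8 genes had GGAATG on either strand in at least 1 region, as did 9 of the 10 regions, compared with 14.7% of all 32851 regions of this length. No start region of Ctgf or Tead1 was used here. None of the 10 regions held TGANTCA, the letters bound by AP-1, which 7.81% of all regions held, or a CArG box, the element bound by SRF, which 1.63% held. At shares this low, 10 regions can easily hold none, and bases outside the regions were not searched, so this absence says little. A match or its absence describes letters and is not evidence for or against binding. Of other genes of the pathway described further on, 6 of 18 Hippo regulators with a region had GGAATG, as did 1 of 2 of the other TEAD genes. Among other YAP and TAZ signature genes, a list of 16, it was found in 2 of the 10 with a region. Each list, that of the 10 genes included, lacks a region for some genes, so the share of a whole list is not known. The 250 bases before the start are shown for Cyr61 and Ajuba, which were among the most lowered genes and whose stretches held no annotated exon, and 26 bases around the match for other genes. Capitals mark the match, and the letters run 5′ to 3′ on the strand of the gene.
Cyr61, chr3:145649986-145650235, minus strand: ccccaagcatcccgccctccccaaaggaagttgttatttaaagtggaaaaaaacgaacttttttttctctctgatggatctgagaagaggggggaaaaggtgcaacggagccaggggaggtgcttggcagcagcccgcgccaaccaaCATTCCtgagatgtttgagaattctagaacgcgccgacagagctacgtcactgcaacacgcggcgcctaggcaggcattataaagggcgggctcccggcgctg
Ajuba, chr14:54577662-54577911, minus strand: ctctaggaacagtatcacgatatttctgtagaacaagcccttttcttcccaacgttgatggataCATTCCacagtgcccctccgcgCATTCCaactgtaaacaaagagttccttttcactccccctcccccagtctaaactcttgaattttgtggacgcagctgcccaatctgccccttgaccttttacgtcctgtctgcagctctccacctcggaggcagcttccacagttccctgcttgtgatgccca
Amotl2, chr9:102717729-102717754, plus strand: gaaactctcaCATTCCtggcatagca
Ankrd1, far match, chr19:36120039-36120064, minus strand: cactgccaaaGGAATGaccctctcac
Ankrd1, near match, chr19:36119952-36119977, minus strand: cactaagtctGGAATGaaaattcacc
Yap1, chr9:8004722-8004747, minus strand: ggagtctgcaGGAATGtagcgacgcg
Wwtr1, chr3:57576031-57576056, minus strand: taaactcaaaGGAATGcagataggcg
Axl, chr7:25788951-25788976, minus strand: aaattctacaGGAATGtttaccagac
Lats2, chr14:57746104-57746129, minus strand: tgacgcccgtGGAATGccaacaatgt

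Ajuba and Ankrd1 each had 2 matches, and those of Ajuba lay 186 and 164 bases before the start on the strand opposite to the gene. The match of Cyr61 lay 103 bases before the start and that of Amotl2 65 bases before it. The 2 Wwtr1 regions overlap and share 1 match. The match of Lats2 began at base 5 of the transcript from the upstream of its 2 starts. The 250 bases before the Ankrd1 start lie within an Ankrd1 exon in the GENCODE annotation, where the gene begins further upstream. For Amotl2, 136 of the 250 bases lie within an Amotl2 exon, and Amotl2 and Lats2 also begin further upstream in GENCODE. In the downstream of the 2 Wwtr1 regions, 34 bases lie within a Wwtr1 exon, and for Yap1 17 lie within an exon of Gm45494. The distances given are from the RefSeq starts.

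**Figure D1:**
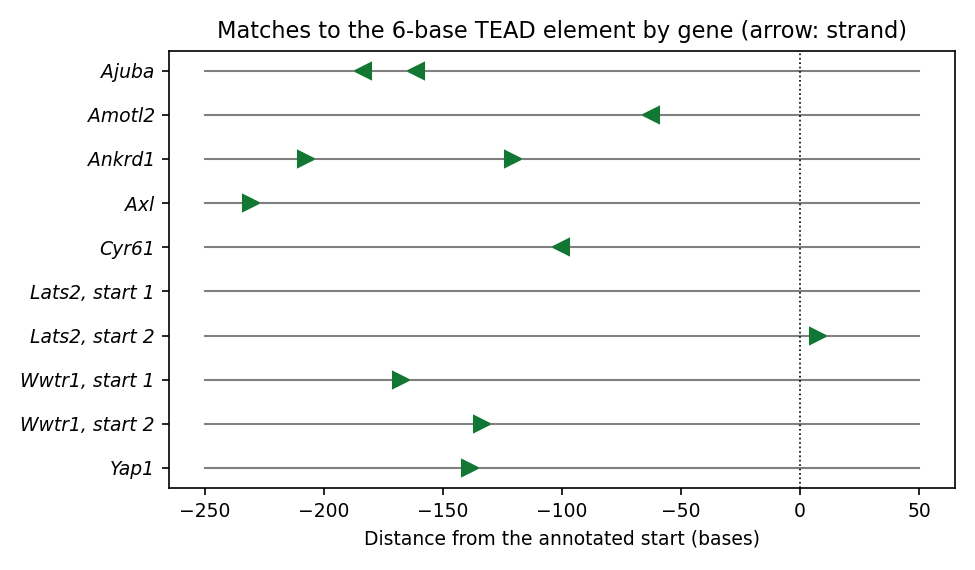
Position of GGAATG in the RefSeq start regions of 8 genes. The horizontal axis is the distance from the annotated start in bases, each grey line is 1 region, and arrows point right for a match on the strand of the gene and left for the other strand. Of the 10 regions, 9 hold a match, and 1 of the 2 Lats2 regions holds none.

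In TPM as deposited, the levels of all 10 genes in the 3 rSLURP1 libraries lay below those in the 3 rGST libraries, and all 10 passed an adjusted p-value of 0.05 in limma (Benjamini-Hochberg over the 12301 genes). These counts must be read against the whole table, because 58.5% of all tested genes were called lower, 8.66% were called higher and 61.7% were lower in every rSLURP1 library. The tested genes as a whole had a median log2 fold change of -0.33, measured on log2(TPM + 1), where TPM is a relative abundance that is corrected for transcript length and has the same total in each library. The size of the change differed among the 10 genes. A total of 4, Ctgf, Amotl2, Cyr61 and Ajuba, were called lower at least 2-fold, compared with 7.06% of all tested genes. The median log2 fold change of the 10 genes was -0.67, and 8 of them lay below the median of all genes.

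A second scaling was used to read changes against the bulk of the genes. With median-ratio scaling, which sets the typical gene equal between libraries, the median of all genes was near 0, and 25.2% of them were called lower and 26.0% higher. Of the 10 genes, 6 were then called lower (Ctgf, Amotl2, Cyr61, Ajuba, Lats2 and Yap1), 1 was called higher (Wwtr1), and Ankrd1, Tead1 and Axl did not pass. Ctgf and Amotl2 were then called lower at least 2-fold, compared with 3.76% of all tested genes. As deposited and in the 15 alternatives, Ctgf, Amotl2, Cyr61, Ajuba and Lats2 were the 5 genes called lower in each of the 16 settings run.

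**Figure D2:**
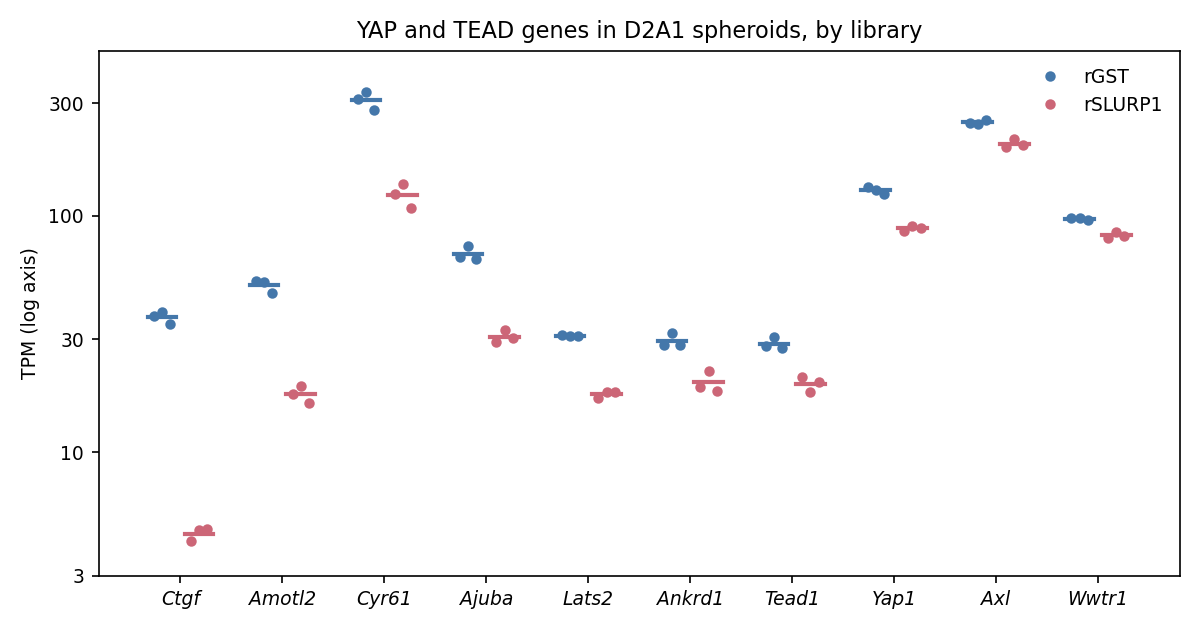
TPM of the 10 genes (vertical log axis) in each of the 6 libraries, as deposited, with genes ordered by fold change. Points are libraries 1 to 3 from left to right and bars are group means. For every gene the 3 rSLURP1 points lie below the 3 rGST points, with the widest gap on this scale for Ctgf, 34.71 to 39.32 TPM with rGST and 4.19 to 4.71 with rSLURP1.

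Markers of cell types were read in the same libraries. Of 8 mammary epithelial markers, Epcam, Krt5 and Krt14 were listed at 0 in every library and Cdh1 was at or below 0.07 TPM, whereas Krt18 had 191 to 199 TPM, so few of these markers were found in cells labelled as mammary. Of the 3 tested, Trp63 and Krt8, both low, were called lower as deposited (log2 fold changes -0.78 and -0.60, limma adjusted p = 0.00158 and 0.00968), and Krt18 did not pass (adjusted p = 0.712). With median-ratio scaling Trp63 was still called lower, Krt8 did not pass and Krt18 was called higher. Of 6 markers of a mesenchymal state, 4 were tested and called lower as deposited, and 2 with median-ratio scaling. All 6 tested genes of 8 fibroblast markers were called lower under both scalings. The summed TPM of the 8 was 1160 to 1305 with rGST and 76.7 to 87.7 with rSLURP1. The levels of these markers were uneven. Mean TPM with rGST was 581 for Dcn, 197 for Pdgfra, 177 for Lum, 155 for Mfap5 and 108 for Pdgfrb. The collagen genes were low, with 8.78 for Col1a1, and 0.437 and 0.363 for Col3a1 and Col1a2, which were not tested. All 6 leukocyte and 4 endothelial markers were at or near 0, with summed TPM of at most 0.27 and 0.31. The fibroblast markers therefore moved in the same direction as Ctgf, Cyr61 and Amotl2, and their part in these results was not tested. In bulk RNA, fewer cells of a kind and less RNA per cell cannot be told apart. The number of genes at 1 TPM or more was 12390 to 12449 with rGST and 11906 to 11981 with rSLURP1. Slurp1 itself was listed at 0 throughout, and recombinant protein adds no transcript.

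Ctgf (ENSMUSG00000019997.11; GRCm38 chromosome 10, 24595442 to 24598683, plus strand) encodes CCN2, a secreted matricellular protein that binds integrins. Its TPM was 37.79, 39.32 and 34.71 in rGST libraries 1 to 3, and 4.19, 4.67 and 4.71 in rSLURP1 libraries 1 to 3. The rSLURP1 level was 12.1% of the rGST level, with means of 4.52 ± 0.289 and 37.3 ± 2.35 TPM (SD, n = 3 each). Ctgf had a log2 fold change of -2.79 ± 0.079 (SE, limma adjusted p = 3.46e-07), or -2.47 when measured from the all-gene median, and 0.463% of the tested genes had a lower value. Cyr61 (ENSMUSG00000028195.4; chromosome 3, 145646976 to 145649981, minus strand) encodes CCN1, a related secreted protein that also binds integrins. Its TPM was 311.07, 335.49 and 280.95 with rGST and 123.77, 136.71 and 108.26 with rSLURP1. Cyr61 was the most abundant of the 10 genes with rGST and the second, after Axl, with rSLURP1. Cyr61 had a log2 fold change of -1.33 ± 0.095 (SE, limma adjusted p = 2.02e-05), and 3.61% of the tested genes had a lower value. Both secreted targets fell, but unequally. The ratio of Ctgf to Cyr61 within a library was 0.117 to 0.124 with rGST and 0.0339 to 0.0435 with rSLURP1, and these ranges do not overlap (exact permutation test, two-sided p = 0.1). With 3 libraries against 3 this is the smallest p-value the exact test can give.

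Amotl2, Lats2 and Ajuba act on the Hippo cascade itself. Amotl2 (ENSMUSG00000032531.15; chromosome 9, 102716672 to 102733418, plus strand) encodes an angiomotin, which binds YAP1 and holds it out of the nucleus, and is also a YAP1 target. It had 53.06, 52.56 and 46.96 TPM with rGST and 17.67, 19.08 and 16.14 with rSLURP1, so that 34.7% of the level was left. The log2 fold change of Amotl2 was -1.48 ± 0.079 (SE, limma adjusted p = 5.55e-06), or -1.15 when measured from the all-gene median. Ajuba (ENSMUSG00000022178.11; chromosome 14, 54567472 to 54577558, minus strand) encodes a LIM protein of cell junctions that binds and restrains LATS kinases. It had 66.7, 74.7 and 65.54 TPM with rGST and 29.3, 32.8 and 30.34 with rSLURP1. The log2 fold change of Ajuba was -1.14 ± 0.069 (SE, limma adjusted p = 9.81e-06), or -0.81 when measured from the all-gene median. Lats2 (ENSMUSG00000021959.16; chromosome 14, 57689662 to 57758388, minus strand) encodes a kinase that inactivates YAP1 and is raised by it. Lats2 had 31.23, 30.87 and 30.91 TPM with rGST, the tightest group among the 10 genes, and 16.93, 17.9 and 18.04 with rSLURP1. The log2 fold change of Lats2 was -0.78 ± 0.055 (SE, limma adjusted p = 1.82e-05), or -0.46 when measured from the all-gene median. A restrainer of LATS and 2 inhibitors of YAP1 were thus lower in the same libraries.

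Ankrd1 and Axl moved less. Ankrd1 (ENSMUSG00000024803.8; chromosome 19, 36111961 to 36120099, minus strand), which encodes an ankyrin repeat protein of muscle and of stretched cells, had 28.43, 32.01 and 28.29 TPM with rGST. In the rSLURP1 libraries Ankrd1 had 18.93, 22.14 and 18.21 TPM, without overlap with rGST. Ankrd1 had a log2 fold change of -0.56 ± 0.089 (SE, limma adjusted p = 9.55e-04), or -0.24 when measured from the all-gene median. With median-ratio scaling the value for Ankrd1 was -0.22, with an adjusted p of 0.0503 in limma, just above the threshold. Axl (ENSMUSG00000002602.16; chromosome 7, 25757273 to 25788705, minus strand), the receptor tyrosine kinase for GAS6, had 247.02, 244.47 and 255.77 TPM with rGST and 196.23, 211.33 and 199.54 with rSLURP1. Its log2 fold change was -0.30 ± 0.042 (SE, limma adjusted p = 5.09e-04). This is 0.027 above the median of all genes. With median-ratio scaling Axl was at 0.054 (95% interval -0.022 to 0.13, adjusted p = 0.203 in limma).

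As deposited, the coactivators were lowered less than the most lowered targets, and under median-ratio scaling Wwtr1 turned higher. Yap1 (ENSMUSG00000053110.13; chromosome 9, 7931999 to 8004596, minus strand) had 132.27, 128.56 and 123.41 TPM with rGST and 86.09, 90.94 and 89.11 with rSLURP1, which is 69.3% of the rGST level. Yap1 had a log2 fold change of -0.52 ± 0.044 (SE, limma adjusted p = 4.13e-05), or -0.20 when measured from the all-gene median. Wwtr1 (ENSMUSG00000027803.14; chromosome 3, 57455649 to 57575910, minus strand) had 97.51, 97.85 and 96.36 TPM with rGST and 80.5, 85.88 and 81.92 with rSLURP1. The log2 fold change of Wwtr1 was -0.23 ± 0.041 (SE, limma adjusted p = 0.00178) as deposited. With median-ratio scaling Wwtr1 reversed to 0.12 (adjusted p = 0.0183 in limma), so its direction depends on the scaling. A ratio within a library does not depend on it. The ratio of Wwtr1 to Yap1 was 0.737, 0.761 and 0.781 with rGST and 0.935, 0.944 and 0.919 with rSLURP1. TAZ transcripts thus made up a larger part of the pair in every rSLURP1 library (exact permutation test, two-sided p = 0.1).

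**Figure D3:**
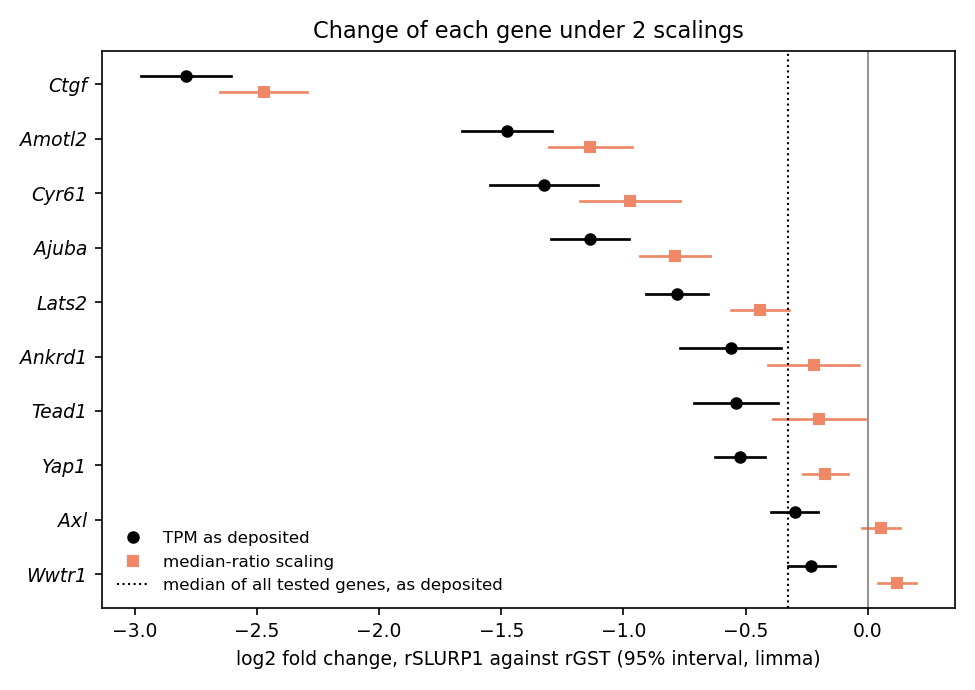
Log2 fold change of each gene, rSLURP1 against rGST, with 95% intervals from limma, for TPM as deposited (black circles) and with median-ratio scaling (orange squares). The dotted line is the median of all tested genes as deposited, -0.33. Ctgf, Amotl2, Cyr61, Ajuba and Lats2 lie furthest left of it, and Ankrd1, Tead1 and Yap1 also lie left of it. Wwtr1 and Axl lie near it and cross to the right of 0 with median-ratio scaling.

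Tead1 (ENSMUSG00000055320.17; chromosome 7, 112679318 to 112906807, plus strand) encodes a DNA-binding partner of YAP1 and TAZ. It had 28.05, 30.79 and 27.56 TPM with rGST and 20.7, 18.05 and 19.8 with rSLURP1. Its log2 fold change was -0.54 ± 0.074 (SE, limma adjusted p = 4.66e-04), or -0.21 when measured from the all-gene median. With median-ratio scaling Tead1 was at -0.20 (adjusted p = 0.0738 in limma). Tead1 was not the main family member in these cells. Tead2 had 167.11, 153.13 and 152.13 TPM with rGST and 165.51, 154.51 and 165.26 with rSLURP1. These groups overlap, and the log2 fold change of Tead2 was 0.039 (95% interval -0.080 to 0.16, adjusted p = 0.521 in limma), whereas with median-ratio scaling it was 0.39 (adjusted p = 0.00118). Tead3 fell from a mean of 23.3 to 15.9 TPM (log2 fold change -0.53, limma adjusted p = 7.94e-04), and under the second scaling it was at -0.19 (adjusted p = 0.0541). Tead4 was low, at 4.87, 4.35 and 3.32 TPM with rGST and 4.82, 5.63 and 5.33 with rSLURP1 (log2 fold change 0.28, adjusted p = 0.102 in limma). With median-ratio scaling Tead4 was at 0.57 (adjusted p = 0.00922). As a share of the 4 TEAD genes, Tead2 held 72.3% to 74.9% with rGST and 78.8% to 80.5% with rSLURP1. The share of Tead1 was 12.6% to 14.5% with rGST and 9.21% to 10.1% with rSLURP1. Neither share overlaps between the treatments.

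To set the targets beside their coactivator without any scaling between libraries, each gene was divided by Yap1 in the same library. The ratio of Ctgf to Yap1 was 0.281 to 0.306 with rGST and 0.0487 to 0.0529 with rSLURP1. That of Cyr61 was 2.28 to 2.61 and 1.21 to 1.50, and that of Amotl2 was 0.381 to 0.409 and 0.181 to 0.210. Ajuba and Lats2 also had lower ratios in every rSLURP1 library. Tead1 and Ankrd1 kept ratios that overlapped, with means of 0.225 and 0.220 for Tead1 (exact permutation test, two-sided p = 0.8) and 0.231 and 0.223 for Ankrd1 (p = 0.7 in the same exact test). Axl and Wwtr1 had higher ratios in every rSLURP1 library. For the 7 genes whose ratios to Yap1 did not overlap, p was 0.1 in the two-sided exact test. The share of all tested genes with such ratios was not computed. As deposited, 29.6% of the tested genes had a lower log2 fold change than Yap1. Higher ratios such as those of Axl and Wwtr1 are therefore common among all genes. The log2 fold changes of all tested genes ran from -1.16 at the 5th percentile to 0.49 at the 95th, so they too changed unequally. That the 10 genes did not change together relative to Yap1 is therefore a description and not a trait particular to them.

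**Figure D4:**
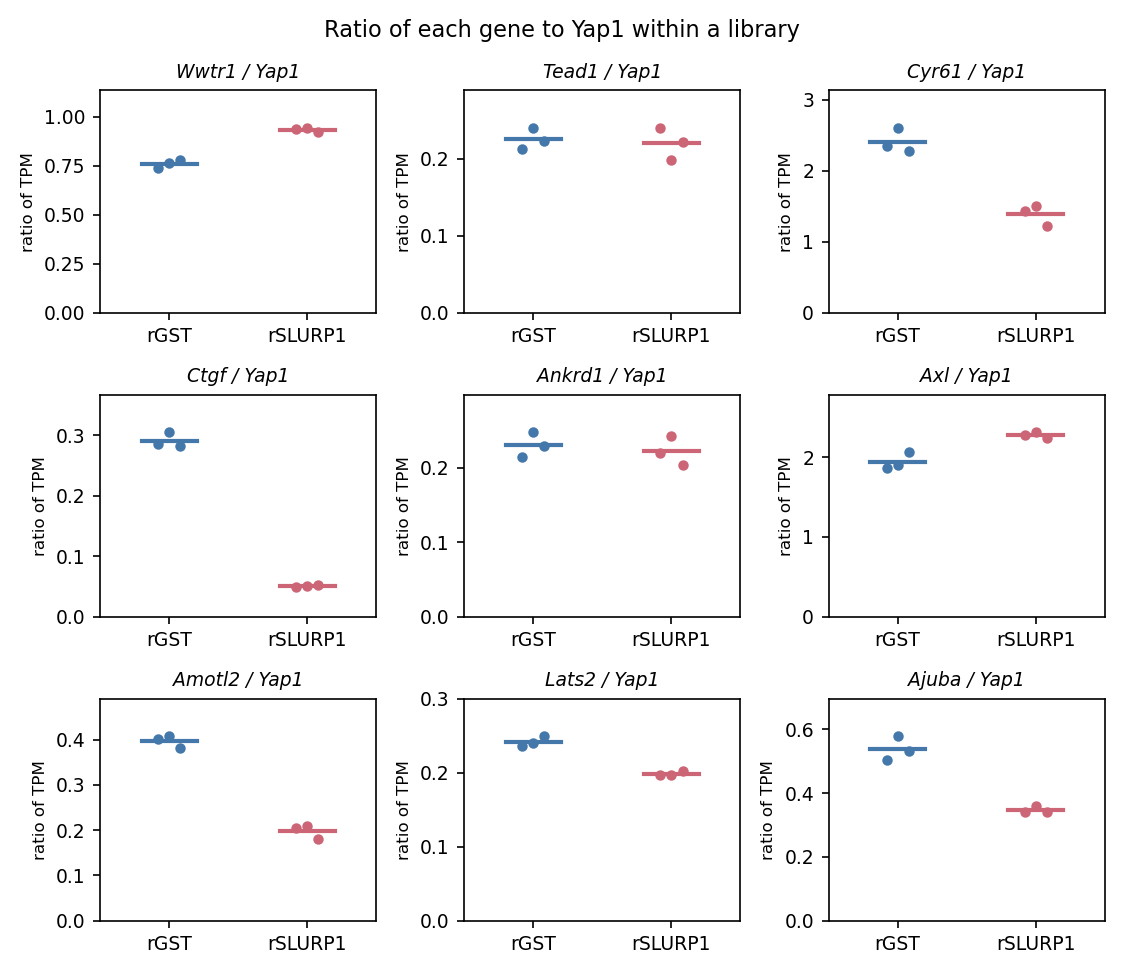
Ratio of the TPM of each gene to that of Yap1 in the same library (vertical axes start at 0), for 3 rGST and 3 rSLURP1 libraries, with bars at the means. Ratios of Ctgf, Cyr61, Amotl2, Lats2 and Ajuba are lower in all rSLURP1 libraries, those of Axl and Wwtr1 are higher, and those of Tead1 and Ankrd1 overlap.

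In order of fold change the genes ran Ctgf, Amotl2, Cyr61, Ajuba, Lats2, Ankrd1, Tead1, Yap1, Axl and Wwtr1. Of the 9 neighbouring pairs, 6 had ratios within a library that did not overlap between treatments. The order was taken from these same values, so this count describes it and is no separate test of it. The share for pairs of other genes was not computed. Lats2 and Ankrd1, Ankrd1 and Tead1, and Tead1 and Yap1 did not differ beyond the spread between libraries. Among themselves the genes varied little between libraries of the same treatment. The coefficient of variation was 0.636% to 8.84% with rGST and 2.76% to 11.6% with rSLURP1, with Cyr61 the highest in both. Library 2 stood highest as a set in both treatments, with 9 of the 10 genes above their group mean with rSLURP1 and 8 with rGST. The lowest was rGST library 3, with 1 of 10. Tead1 was the gene below its mean in rSLURP1 library 2. By levels, the order with rGST was Cyr61, Axl, Yap1, Wwtr1, Ajuba, Amotl2, Ctgf, Lats2, Ankrd1 and Tead1. Ctgf moved from rank 7 with rGST to rank 10 with rSLURP1, and Amotl2 from 6 to 8.

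Other genes of the pathway were taken from lists that, like the 10 genes, were chosen with earlier results of these data known. Their counts are therefore given as a description. Of 16 further genes of a published signature of YAP and TAZ activity, 14 were tested, 12 were called lower, 1 was called higher and 1 did not pass in limma. Of all tested genes, 58.5% were called lower and 8.66% higher. The median log2 fold change of the 14 was -0.57, against -0.33 for all tested genes, and 5 were called lower at least 2-fold, compared with 7.06% of all. With median-ratio scaling, 7 were called lower, 3 higher and 4 did not pass, where 25.2% of all genes were lower and 26.0% higher. The lowest on the log2(TPM + 1) scale were Nuak2, a kinase that maintains actomyosin tension, Gadd45a, a stress response gene, and Asap1, an adaptor with Arf GAP activity at focal adhesions. Nuak2 had 9.22, 8.77 and 8.19 TPM with rGST and 1.16, 1.25 and 1.29 with rSLURP1 (log2 fold change -2.12, adjusted p = 3.86e-06 in limma). Gadd45a had 434.17, 436.62 and 427.44 TPM with rGST and 99.46, 112.19 and 108.19 with rSLURP1 (log2 fold change -2.01, adjusted p = 2.30e-07 in limma). Gadd45a is also a p53 target and responds to stresses outside this pathway. Asap1 had a log2 fold change of -1.58 (adjusted p = 6.54e-07 in limma). This scale understates changes at low levels, and by the ratio of mean TPM Tgfb2, a TGF-beta ligand named after its values were seen, was 5.60-fold lower, more than Gadd45a (4.06-fold) or Asap1 (3.02-fold). At the other end, Dock5, an exchange factor for Rac, was higher, with 7.02, 7.11 and 6.99 TPM with rGST and 9.81, 9.3 and 9.24 with rSLURP1 (log2 fold change 0.38, adjusted p = 0.00308 in limma). Foxf2, a forkhead factor, was at 0.16 (adjusted p = 0.105), and Myof, a ferlin of the plasma membrane, was at -0.12 (adjusted p = 0.0452 in limma) as deposited. With median-ratio scaling Foxf2 was called higher (0.49, adjusted p = 0.00145), and Myof turned to 0.23 (adjusted p = 0.00278). Without rSLURP1 library 2 the adjusted p of Myof was 0.0503, and 4 of the other 5 fits that left out a library also lost its call, with p up to 0.153.

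Of 22 Hippo regulators that are not among the 10 genes, 19 were tested, 12 were called lower, none higher, and 7 did not pass in limma as deposited, where 58.5% of all tested genes were called lower. Their median log2 fold change was -0.31, close to that of all tested genes, and 9 of the 19 were lower than it. With median-ratio scaling, 7 were called lower and 4 higher, compared with 25.2% and 26.0% of all tested genes. The lowest on the log2(TPM + 1) scale were Amot, the founding angiomotin, Stk3, the MST2 kinase, and Fat4, an atypical cadherin upstream of the kinases. Amot had 56.71, 54.79 and 51.34 TPM with rGST and 11.27, 13.39 and 12.98 with rSLURP1 (log2 fold change -2.03, adjusted p = 1.30e-06 in limma). Stk3 had 72.7, 77.27 and 70.97 TPM with rGST and 33.38, 29.77 and 27.98 with rSLURP1 (log2 fold change -1.25, adjusted p = 7.89e-06 in limma). Fat4 had a log2 fold change of -1.13 (adjusted p = 1.03e-04 in limma). The 3 highest, Mob1b, Sav1 and Map4k4, did not pass as deposited, with log2 fold changes of -0.042, -0.069 and -0.089. With median-ratio scaling these 3 were called higher, at 0.28, 0.28 and 0.26.

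The angiomotin genes changed unequally. Together, Amot, Amotl1 and Amotl2 had 126 to 137 TPM with rGST and 50.2 to 54.9 with rSLURP1. Amotl1, which was named after its values were seen, held 19.9% to 21.7% of this sum with rGST and 40.8% to 44.6% with rSLURP1, the largest share of the 3 there. Amot held 40.5% to 41.4% with rGST and 21.6% to 25.9% with rSLURP1. The LATS kinases also shifted. Lats2 was 2.19 to 2.41 times Lats1 in the rGST libraries and 1.63 to 1.65 times Lats1 in the rSLURP1 libraries. Lats1 was likewise named after its values were seen, and neither comparison overlaps between treatments (p = 0.1 for each in the two-sided exact permutation test).

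**Figure D5:**
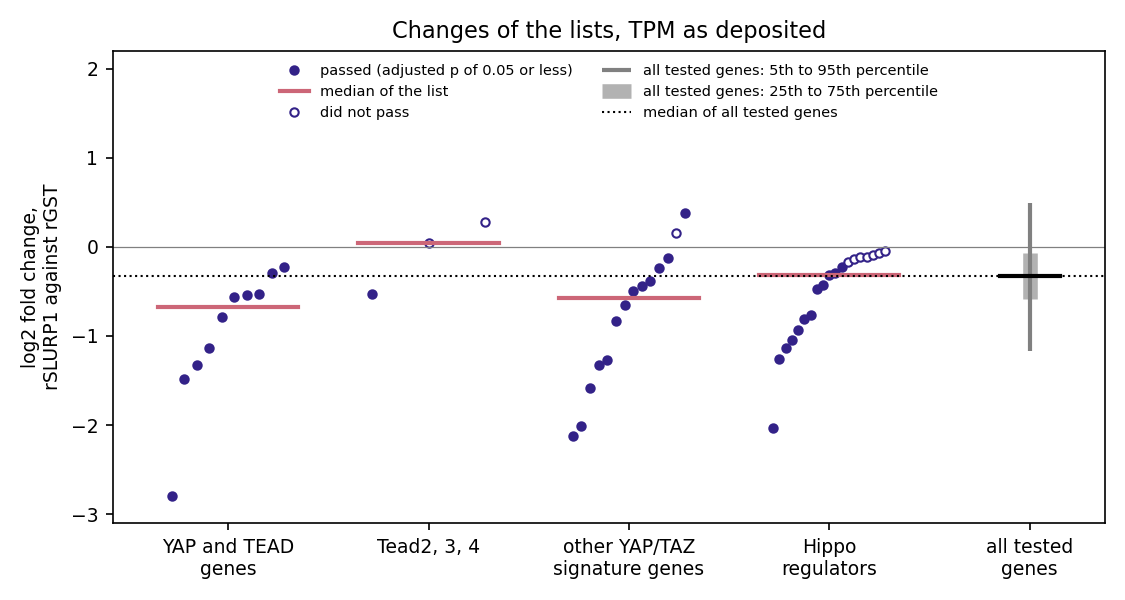
Log2 fold change of each tested gene in the 4 lists (vertical axis, TPM as deposited), filled where the adjusted p was 0.05 or less in limma, beside the spread of all 12301 tested genes. The median is -0.67 for the 10 genes and -0.57 for the other signature genes, below the -0.33 of all genes, and -0.31 for the Hippo regulators.

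Axl had the highest mean TPM of the 10 genes over all libraries. The genes whose log2(TPM + 1) followed it most closely over the 6 libraries were Emg1, Tbcc and Jpx, with Pearson r of 0.9995, 0.9991 and 0.9991. These 6 points form 2 treatment groups, so the likeness mostly shares the treatment difference and is given as a description.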

How the data were processed

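RNAseq of D2A1 spheroids was read in 6 libraries, 3 with rSLURP1 and 3 with rGST, grouped by their titles. Per the submitters' processing notes the reads were trimmed with Cutadapt (1.18), aligned to mm10 with STAR (2.5.2b) and quantified with RSEM (1.3.3). The authors deposited TPM per gene, with 1 column per library. The paper's methods describe Smart-seq2 and the labels a TruSeq mRNA kit, and which was used is unsettled. The number of reads cannot be read from TPM, so the depth is unknown and no counting interval was computed.

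Genes at 1 TPM or more in 3 or more libraries were kept, and their log2(TPM + 1) was tested with limma (3.58.1, R 4.3.3; eBayes with trend), rSLURP1 against rGST, with Benjamini-Hochberg adjustment over 12301 genes. TPM is not a count, so DESeq2, which the notes also name, was not used. Fold changes on this scale understate those of genes with low TPM. Single values were compared with an exact permutation test (scipy 1.17.1). Coordinates came from GENCODE M21 and start regions from RefSeq, both on GRCm38, the build of mm10. Transcript length and GC content came from the longest transcript (54079 genes).

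The members and lists were chosen with earlier results of these data known. The named genes were the 10 genes, Tead2 to Tead4, the 3 lowest and 3 highest of each pathway list, and the 3 genes most like the member with the highest mean. Alternatives were another pseudocount, other filters, 2 scalings, eBayes without trend, a replicate block, a length and GC correction, and each library left out. Same-numbered libraries had correlations of deviations from their group means of -0.056, -0.034 and -0.061. Across all tested genes the numbers thus gave no sign of pairing. Scripts were tested on simulated data in which few genes changed, as many up as down. That test does not cover an overall shift such as the one seen here.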

Additional observations from a re-analysis of the deposited data

How the results depend on the processing

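All 10 genes were called lower with the pseudocount of 0.1, without a filter, with the filter in all 6 libraries, with eBayes without trend, with the replicate block and in each fit that left out a library. Of 150 values of the 10 genes over the alternatives, 134 kept direction and call, 9 became weaker and 7 reversed. The genes called lower numbered 6 in each of 4 settings. These were median-ratio scaling, quantile normalization, correction for length and GC, and this correction plus the replicate block. In this order 1, 0, 2 and 2 genes were called higher. Beside the 5 genes called lower in every setting, Yap1 was called lower under the first 2. Under both corrections for length and GC it was Ankrd1 instead (-0.25, limma adjusted p = 0.032 and 0.017). With quantile normalization 6 of the 10 genes and 8 of the other signature genes were called in all. In the same 4 settings, 7, 6, 6 and 6 of the other signature genes were called lower and 3, 2, 3 and 3 higher. Of the Hippo regulators, 7 were called lower in each, and 4, 7, 9 and 7 were called higher, compared with none as deposited. Over all tested genes, 3094, 2905, 2680 and 2455 were lower and 3198, 3111, 3338 and 3117 higher. These settings moved the median of all genes from -0.33 to -0.0012, 0.020 and 0.032 (median-ratio, quantile, length and GC).

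In the same order, Wwtr1 reversed to 0.12, 0.037, 0.18 and 0.18, Myof to 0.23, 0.10, 0.33 and 0.33, Sav1 to 0.28, 0.24, 0.30 and 0.30, Map4k4 to 0.26, 0.17, 0.38 and 0.38, and Mob1b to 0.28, 0.36, 0.41 and 0.41. Axl reversed to 0.054 with median-ratio scaling and to 0.16 under either correction for length and GC. Without rGST library 3 Mob1b was at 0.035, and over the 6 fits that left out a library it ranged from -0.12 to 0.035. Yap1 was not called when corrected for length and GC (-0.092, adjusted p = 0.0722 in limma). The cause of these changes was not tested. Across all tested genes the replicate numbers gave no sign of pairing, and the replicate block alone left 10 genes and 7962 of all genes called. The block lowered the SE of Cyr61 from 0.095 to 0.039 and that of Ankrd1 from 0.089 to 0.061. It also lowered the SE of Amotl2 and Ajuba and raised that of the other members, so pairing is not settled. Depth is unknown, so its effect on low genes such as Fat4 and Tead4 could not be assessed.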
